A study of Homo sapiens with 9 samples.

Results

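The genes described here encode the parts of the lysosome that acidify it, enclose it and digest what enters it. They were taken by name: every protein-coding gene whose symbol starts with ATP6V or ATP6AP, and 15 further genes (LAMP1, LAMP2, LAPTM4A, LAPTM4B, CD63, CTSA, CTSB, CTSD, CTSL, CTSZ, TPP1, GRN, MCOLN1, TFEB and TFE3). This gave 42 of the 60671 genes in the count files, of which 24 carried the ATP6V prefix and 3 the ATP6AP prefix. After removal of genes with low counts, 35 of the 42 remained for testing.

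RNA was sequenced from H295R cells, a line established from a human adrenocortical carcinoma that still makes steroid hormones. The 3 groups were cells of genotype WT, a line labelled as a knockout of SGPL1 (KO) and a line labelled for overexpression of SGPL1 (OE), each with 3 libraries and with no treatment in any group. SGPL1 encodes sphingosine-1-phosphate lyase, the enzyme of the endoplasmic reticulum that ends sphingolipid breakdown by cleaving sphingosine-1-phosphate. The series compared these transcriptomes in a study of SGPL1 in the metabolism and growth of adrenocortical carcinoma. The kind and place of the edit, the construct for overexpression and whether a group is 1 clone were not found in the labels, and a control line carrying an empty vector or a cutting enzyme alone is not named there either. The submitters describe the replicates as biological, but whether each came from its own culture is not stated, so a p-value measures the spread between these libraries, which may be partly technical.

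The vacuolar ATPase (V-ATPase) is a rotary proton pump: its cytosolic V1 sector hydrolyses ATP and turns a shaft, and its V0 sector in the membrane carries protons into the lumen. The low pH activates the lysosomal proteases and drives transport across the membrane, which is lined by heavily glycosylated proteins such as LAMP1 and LAMP2. Many of these genes carry an E-box of the CLEAR type in their promoters, a sequence bound by the transcription factors TFEB and TFE3, which enter the nucleus when mTORC1 at the lysosome is inactive. Sphingolipids meet this compartment because ceramide is split there into sphingosine, the precursor of sphingosine-1-phosphate.

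SGPL1 was measured in every library as a check of the labels. Its level in CPM (counts relative to the scaled library total) was 102, 83.4 and 98.1 in the WT libraries, 47.2, 43.9 and 53.8 in the KO libraries and 98.1, 81.3 and 101 in the OE libraries. It was lower in KO (log2 fold change −0.97 ± 0.14 SE, edgeR adjusted p = 0.000105), and no OE library lay above the highest WT library (−0.01 ± 0.14, adjusted p = 0.966). The RNA therefore does not show the labelled overexpression, and these are called OE-labelled libraries below; counts over the whole gene do not say whether the RNA comes from the gene or from a construct. Library totals ranged from 8006873 to 10895080 counts. All 12 adrenocortical markers examined (NR5A1, STAR, CYP11A1 and others) passed the filter on low counts. Their summed level was 5284.3 to 6010.1 CPM in WT, 8814.5 to 10840.4 in KO and 7024.3 to 8159.6 in the OE-labelled libraries. DLK1 was the largest part of this sum, at 2595.4, 5795.8 and 3037.1 CPM on average in WT, KO and the OE-labelled libraries. SCARB1 came next, at 1085.9, 1796.0 and 1935.6, while CYP17A1 was at 68, 58.9 and 59.5. Against WT, 7 of the 12 were called higher in KO and 5 in the OE-labelled libraries, and 0 lower in either. The shares of all genes tested called higher were 9.16% and 9.65%. Of the 10 leukocyte and macrophage markers, 5 had no count in any library, PTPRC, CD14 and the others never exceeded 13 counts, and their summed level was 1.47 to 2.37 CPM in WT, 1.6 to 2.38 in KO and 1.76 to 2.63 in the OE-labelled libraries. Fibroblast markers summed to 17.2 to 27.7 CPM in WT, 14.7 to 17.3 in KO and 11.9 to 16.9 in the OE-labelled libraries. The part of any of these in the results was not tested. In bulk RNA, fewer cells of a kind and less RNA per cell cannot be told apart.

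The 42 genes together took 0.68% to 0.779% of all counts in the WT libraries, 0.601% to 0.657% in KO and 0.855% to 0.979% in the OE-labelled libraries. The 3 ranges do not overlap, with KO lowest and the OE-labelled libraries highest. CD63 alone supplied between 18.6% and 40.9% of these counts. Without CD63 the shares were 0.538% to 0.583% in WT, 0.49% to 0.525% in KO and 0.571% to 0.579% in the OE-labelled libraries, so that WT and the OE-labelled libraries overlapped while KO stayed below both.

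Per length of exons, the V-ATPase subunits of WT cells differed widely in level. ATP6V1G1 of the peripheral stalk had the highest level at 166 ± 21.5 CPM per kb (SD, n = 3), followed by the rotor subunit ATP6V1F at 107 ± 12.9, ATP6V0B of the proton-carrying ring at 90.0 ± 23.4, and ATP6V0E1 at 87.4 ± 14.4. Neighbours in this order, such as ATP6V0B, ATP6V0E1 and ATP6V1E1 (87.2 ± 9.43), lay within each other's SD. Among subunits with several genes, the widely expressed copy prevailed: ATP6V1E1 was at 87.2 against 1.07 ± 0.265 for ATP6V1E2, ATP6V1C1 at 12.6 ± 0.0628 against 0.259 ± 0.16 for ATP6V1C2, and ATP6V1G1 at 166 against 0.252 ± 0.0759 for ATP6V1G2. Of the a subunit genes with the ATP6V prefix, ATP6V0A1 was at 5.3 ± 0.749, ATP6V0A2 at 2.83 ± 0.065 and ATP6V0A4 at 0.0384 ± 0.0333. Genes of this subunit without the prefix were not examined. All annotated exons of a gene enter this length, and they exceed its coding transcripts by unlike amounts. They span 17214 bases in ATP6V0A2, 3239 in ATP6V0B and 762 in ATP6V1F. The median coding transcript of these 3 genes has 1620, 944 and 707 nt. The order of the subunits, also that of ATP6V0A1 and ATP6V0A2, therefore depends on the length used.

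**Figure D1:**
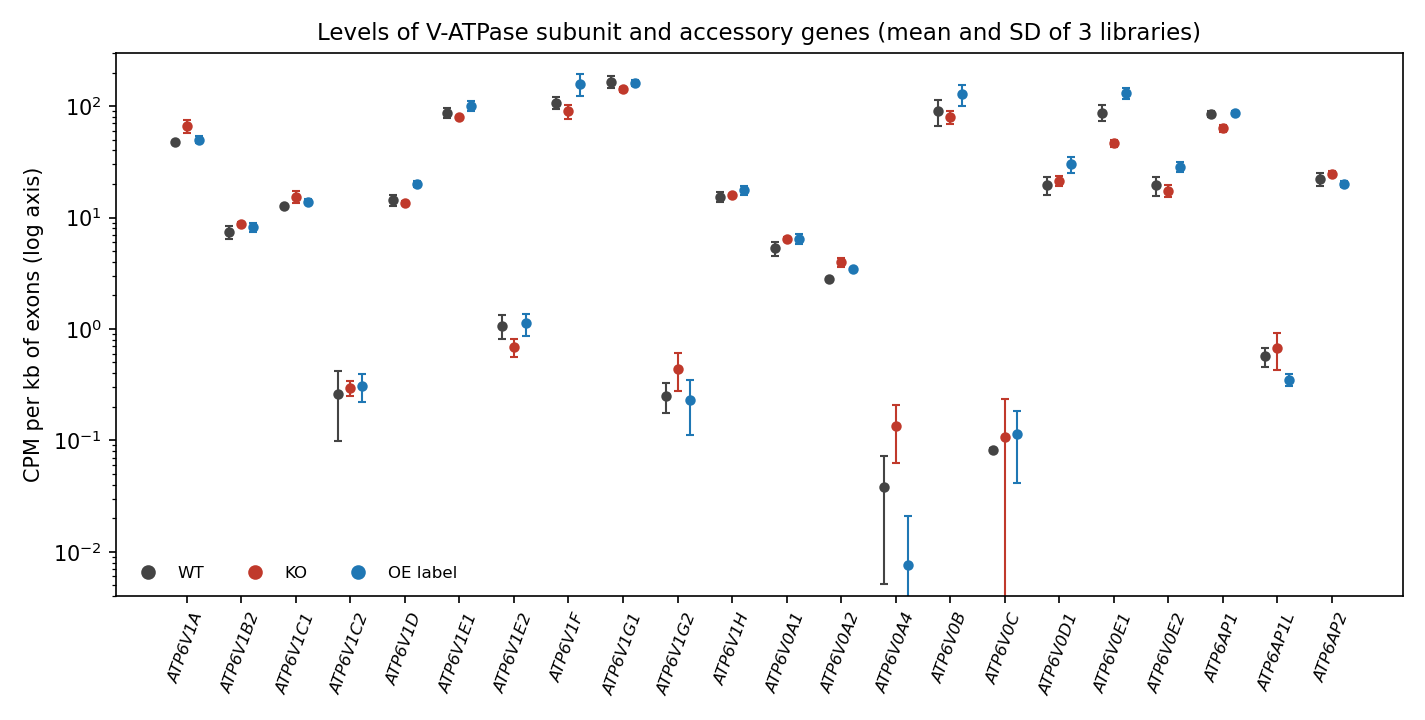
Level of each V-ATPase subunit and accessory gene in CPM per kb of exons on a log axis, as the mean (point) and SD (bar) of 3 libraries for WT, KO and the OE-labelled libraries; a bar that would reach 0 or below is cut at the lower edge, and the 3 subunit genes with 0 counts in all libraries are not drawn. ATP6V1G1 and ATP6V1F stand above 80 CPM per kb in every group, while ATP6V1C2, ATP6V1G2 and ATP6V0A4 stand below 1.

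The 7 genes that did not pass the filter were ATP6V0D2, ATP6V1B1, ATP6V1G3 and the read-through gene ATP6V1G2-DDX39B, each with 0 counts in all libraries, ATP6V1G2 with at most 12 counts, ATP6V0A4 with at most 7 and ATP6V0C with at most 3. The first 3 and ATP6V0A4 encode forms of subunits known mainly from kidney, bone and other specialised tissues. ATP6V0C encodes the main proteolipid of the ring, and its count is not a measure of its level: 76.3% of its 1416 exonic bases are shared with 2 other annotated genes on the same strand, and the counting left out reads that overlap more than 1 gene. For the same reason ATP6V1G2-DDX39B (100% of exonic bases shared) could take no counts, and its 0 is not a measure of its level. ATP6V1B1 (63.1%), CTSD (53.3%), ATP6V1C2 (29.8%), CTSA (28.5%), ATP6V1G2 (23.1%), ATP6V1F (20.6%), ATP6V0E2 (19.7%), ATP6V0D2 (17.1%) and TPP1 (13.9%) may be counted in part. Genes with pseudogenes by symbol, among them ATP6V1G1 (7), CTSL (6), ATP6V0E1 (4) and LAPTM4B (2), are uncertain in level where reads matched several places.

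In KO against WT, 3 of the 35 genes rose and 4 fell, with a median log2 fold change of −0.05 against −0.01 over all 14150 genes tested. These 7 are 20% of the 35, and 18.8% of all genes tested were called in this comparison (9.16% higher, 9.6% lower). The cysteine proteases CTSB and CTSL, the V0 subunit ATP6V0E1 and the accessory protein ATP6AP1 fell, and LAPTM4B, ATP6V0A2 and ATP6V1A rose. The groups did not overlap for 15 of the 35 genes, against 35.2% of all genes tested.

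In the OE-labelled libraries against WT, 9 of the 35 genes rose and 2 fell, with a median of 0.11 against −0.01 over all genes tested. These 11 are 31.4% of the 35, where 20.7% of all genes tested were called (9.65% higher, 11% lower). LAPTM4B and CD63, both membrane proteins, had the largest rises at 3.54-fold and 2.18-fold. The other 7 that rose were 4 of the 6 V0 genes tested, the V1 subunits ATP6V1D and ATP6V1F, and CTSL, while CTSZ and GRN fell. The groups did not overlap for 17 of the 35, against 36.4% of all genes tested. Of the 11 calls, 5 held under each of the 20 alternative settings run (LAPTM4B, CD63, ATP6V0D1, ATP6V0E1 and CTSZ), and the number of genes that rose was 5 without WT replicate 1 and 4 without WT replicate 3.

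The OE-labelled libraries were also set against KO, which tests directly whether the 2 changes from WT differ. Here 12 of the 35 genes were higher and 5 lower (48.6%, against 39.7% of all genes tested, 19% higher and 20.6% lower), with a median of 0.15 against −0.00, and 25 did not overlap (51.7% of all genes tested). The comparisons with WT share the WT libraries. CTSL and ATP6V0E1 were called in opposite directions in them, lower in KO and higher in the OE-labelled libraries, and LAPTM4B was called higher in both.

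**Figure D2:**
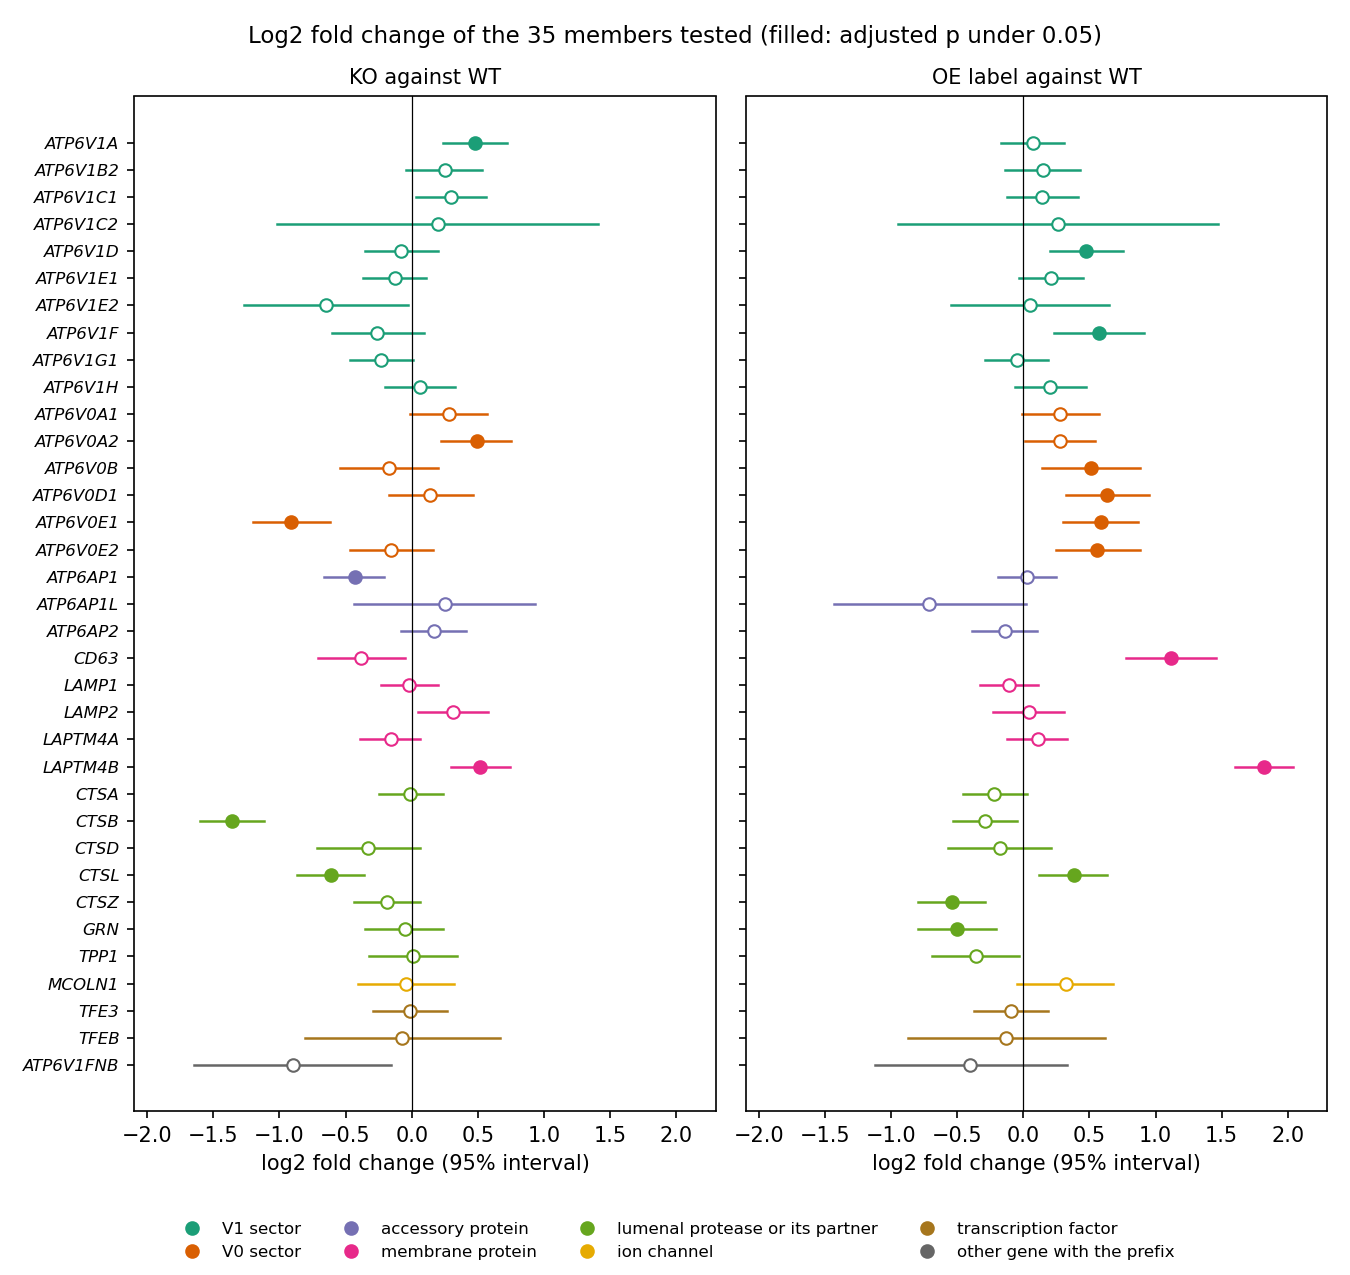
Log2 fold change (point) with its 95% interval (bar) of the 35 genes tested, KO against WT on the left and the OE-labelled libraries against WT on the right, grouped and coloured by role, with filled points for an adjusted p under 0.05. LAPTM4B at 1.82 and CD63 at 1.12 stand farthest to the right in the OE-labelled libraries, and CTSB at −1.36 farthest to the left in KO.

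**Figure D3:**
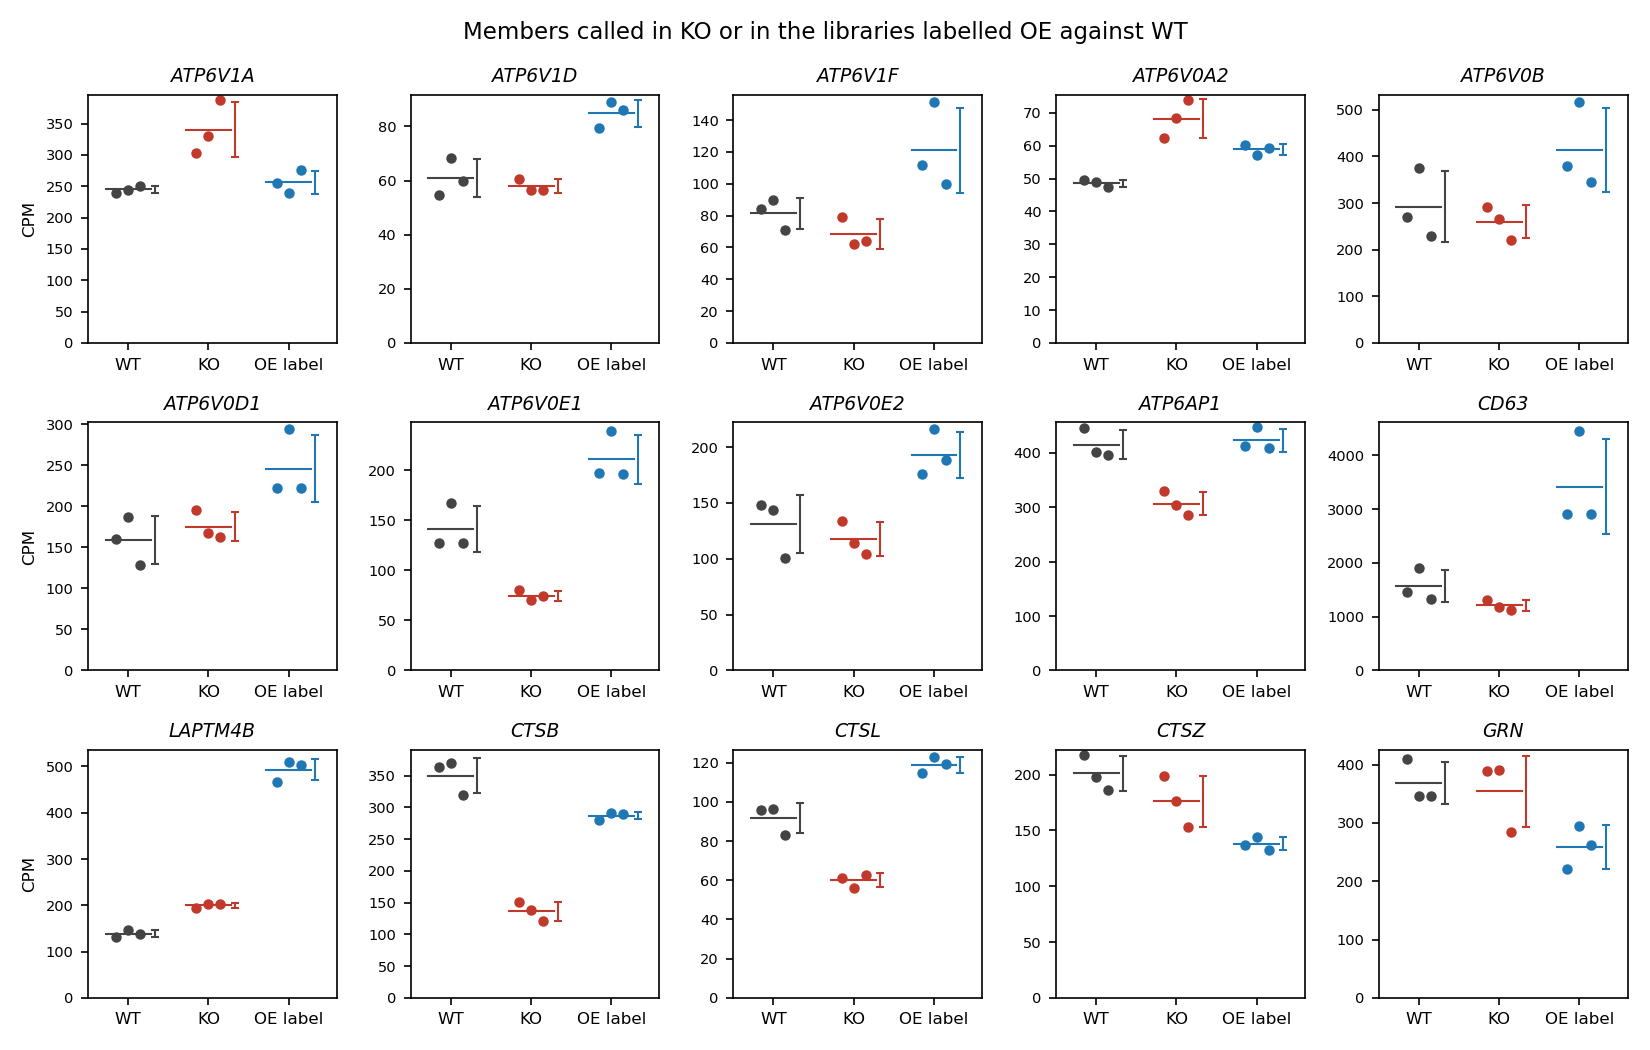
CPM of the 15 genes called in KO or in the OE-labelled libraries against WT, with 1 point per library, the group mean as a horizontal line and the SD as a bar, each panel starting at 0. LAPTM4B separates all 3 groups, and CTSB separates KO at 121 to 151 CPM from WT at 319 to 369.

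All 6 V0 genes tested had a positive log2 fold change in the OE-labelled libraries, with a median of 0.53, and 4 passed the test, where 6951 of all 14150 genes tested were positive and 9.65% were called higher; in KO 1 rose and 1 fell, with a median of −0.01. ATP6V0D1 encodes the d subunit, which joins the rotor shaft to the proteolipid ring. Its level was 160, 187 and 128 CPM in WT, 196, 168 and 163 in KO, with 222, 294 and 223 in the OE-labelled libraries. Every library labelled OE lay above every other library, and the rise over WT was 0.63 ± 0.15 (adjusted p = 0.00786), with 0.14 ± 0.15 in KO (adjusted p = 0.561). ATP6V0E2, 1 of the 2 genes of the small e subunit, was at 148, 144 and 101 CPM in WT, 134, 115 and 104 in KO, with 176, 216 and 188 in the OE-labelled libraries. The OE-labelled libraries again stood above all others, with a rise of 0.56 ± 0.15 (adjusted p = 0.0153; 0.0861 without WT replicate 3). ATP6V0B encodes the c″ proteolipid of the ring and was at 269, 376 and 230 CPM in WT, 292, 266 and 221 in KO, with 381, 517 and 346 in the OE-labelled libraries. Its WT and OE-labelled values overlapped, replicate 2 was the highest in both groups, and the difference was at the threshold (0.51 ± 0.18, adjusted p = 0.0499). It lost the call under 11 of the 20 alternatives, among them leaving out each library except WT replicate 2 and OE replicate 3 (adjusted p 0.0506 to 0.217).

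ATP6V0E1, the other e subunit gene, moved in both comparisons. It was at 128, 167 and 127 CPM in WT, 80, 70.1 and 74.2 in KO, with 198, 239 and 196 in the OE-labelled libraries. The 3 groups did not overlap, and the gene fell in KO (−0.91 ± 0.14, adjusted p = 0.000147) and rose in the OE-labelled libraries (0.59 ± 0.13, adjusted p = 0.00669). The a subunits anchor the pump to its membrane and form the path of the protons. ATP6V0A2, the form known from the Golgi and endosomes, was at 49.5, 49 and 47.4 CPM in WT, 62.4, 68.4 and 74 in KO, with 60.1, 57.1 and 59.3 in the OE-labelled libraries. All KO libraries were above all WT libraries, a rise of 0.49 ± 0.13 (adjusted p = 0.0114; 0.0524 without KO replicate 3), and the OE-labelled libraries lay between (0.28 ± 0.13, adjusted p = 0.131). ATP6V0A1 differed from WT by 0.28 ± 0.14 in both comparisons and was called in neither (adjusted p = 0.177 in KO and 0.156 in the OE-labelled libraries).

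The promoters of these genes were read for the E-box CACGTG in windows from 250 bases before to 50 bases after each RefSeq start (GRCh38.p14). The table held entries for 30 of the 42 genes, 9 of which (30%) had the E-box in at least 1 window, against 8.77% of all 27305 genes with an entry. Among genes that passed the filter it was 9 of 24 (37.5%), against 12.6% of 10618. Counted by window over all genes, 10 of 46 held it, against 7.26% of all 35116 windows. The longer palindrome TCACGTGA, which contains the E-box, was in 5 of the 46 and in 0.98% of all windows, and the full CLEAR palindrome GTCACGTGAC, which contains both, was in 2 and in 0.353%. All 3 sequences read the same on both strands. Of the 7 genes that rose in the OE-labelled libraries and had an entry, 4 held the E-box (ATP6V0B, ATP6V0D1, ATP6V0E2 and CD63, the last upstream of 1 of its 8 listed starts), as did 5 of the 17 tested genes that did not rise. The 100 bases before the start are shown for the 3 V0 genes that rose and hold it, each 5′ to 3′ on the gene's strand, with the E-box in capitals. They lie at chr1:43974860-43974959 (plus strand), chr16:67481158-67481257 (minus strand) and chr7:149872864-149872963 (plus strand).
ATP6V0B: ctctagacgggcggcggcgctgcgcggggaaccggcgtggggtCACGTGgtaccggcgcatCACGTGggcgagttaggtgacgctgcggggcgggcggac
ATP6V0D1: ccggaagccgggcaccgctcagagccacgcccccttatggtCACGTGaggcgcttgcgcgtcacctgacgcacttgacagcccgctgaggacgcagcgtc
ATP6V0E2: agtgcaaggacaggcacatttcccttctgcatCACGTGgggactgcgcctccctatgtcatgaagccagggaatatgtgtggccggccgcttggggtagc
The E-box began 57 and 39 bases before the start in ATP6V0B, 59 in ATP6V0D1 and 68 in ATP6V0E2. For comparison, 4 genes that hold the E-box and did not pass the test in either comparison with WT are shown. TCACGTGA is in the windows of these 4 genes and of ATP6V0D1, which rose. ATP6V1G1 and MCOLN1 hold the full GTCACGTGAC. CTSA has 2 E-boxes, as do MCOLN1 and ATP6V0B, and LAMP1 has 6, of which 5 are in the 200 bases shown. These stretches lie on the plus strand at chr9:114587669-114587768, chr19:7522524-7522623, chr20:45891235-45891334 and chr13:113297039-113297238, and were chosen after their values were seen.
ATP6V1G1: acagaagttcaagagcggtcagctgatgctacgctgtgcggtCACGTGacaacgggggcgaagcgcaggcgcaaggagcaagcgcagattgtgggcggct
MCOLN1: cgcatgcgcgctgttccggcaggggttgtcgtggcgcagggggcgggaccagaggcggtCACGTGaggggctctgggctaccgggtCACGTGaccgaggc
CTSA: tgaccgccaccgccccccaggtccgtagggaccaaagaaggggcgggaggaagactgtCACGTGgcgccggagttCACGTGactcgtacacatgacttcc
LAMP1: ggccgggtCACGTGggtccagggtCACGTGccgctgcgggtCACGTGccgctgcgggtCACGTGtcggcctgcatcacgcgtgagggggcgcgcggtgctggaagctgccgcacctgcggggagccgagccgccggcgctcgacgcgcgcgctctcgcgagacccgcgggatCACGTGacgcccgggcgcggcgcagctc
These 4 genes differed from WT in the OE-labelled libraries by −0.05 ± 0.11 for ATP6V1G1, 0.32 ± 0.17 for MCOLN1, −0.22 ± 0.11 for CTSA and −0.11 ± 0.10 for LAMP1. A match of these letters describes the window and does not show that a factor is bound.

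In the V1 sector, 2 of the 10 genes tested rose in the OE-labelled libraries (median 0.17) and 1 rose in KO (median −0.01). Over all genes tested, 9.65% and 9.16% were called higher in these comparisons. ATP6V1A encodes the catalytic subunit that hydrolyses ATP. It was at 240, 243 and 251 CPM in WT, 303, 330 and 388 in KO, with 255, 239 and 275 in the OE-labelled libraries. The KO libraries were above all others, a rise of 0.48 ± 0.11 (adjusted p = 0.00721), and the OE-labelled libraries overlapped WT (0.07 ± 0.11, adjusted p = 0.717; 0.30 and 0.0318 with an offset in the model for the length of coding transcripts). ATP6V1D and ATP6V1F form the shaft that turns inside the catalytic head. ATP6V1D was at 54.8, 68.5 and 59.8 CPM in WT, 60.7, 56.4 and 56.5 in KO, with 79.3, 89.1 and 86.1 in the OE-labelled libraries. The OE-labelled libraries stood above all others (0.47 ± 0.13, adjusted p = 0.0165), a call lost without OE replicate 3, WT replicate 1 or WT replicate 3 (0.0517 to 0.0934). ATP6V1F was at 84, 89.9 and 70.7 CPM in WT, 79.1, 61.9 and 64 in KO, with 112, 151 and 99.8 in the OE-labelled libraries. It rose by 0.57 ± 0.16 (adjusted p = 0.02), also without overlap, and lost the call without OE replicate 2, WT replicate 1 or WT replicate 3 (0.0623 to 0.0998).

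The other V1 genes did not pass the test against WT. ATP6V1B2, which forms the head of the pump together with ATP6V1A, differed by 0.25 ± 0.14 in KO and 0.15 ± 0.14 in the OE-labelled libraries. ATP6V1C1 and ATP6V1H, which regulate the joining of V1 to V0, differed by 0.30 ± 0.13 and 0.06 ± 0.13 in KO and by 0.14 ± 0.13 and 0.20 ± 0.13 in the OE-labelled libraries. The stalk subunits ATP6V1E1 and ATP6V1G1 differed by −0.13 ± 0.11 and −0.23 ± 0.11 in KO, and by 0.21 ± 0.11 and −0.05 ± 0.11 in the OE-labelled libraries. The scarce paralogs ATP6V1C2 and ATP6V1E2 had wide intervals, from −1.02 to 1.41 and from −1.27 to −0.03 in KO. Between the OE-labelled libraries and KO, ATP6V1E1 was higher by 0.35 ± 0.11 (adjusted p = 0.0232), ATP6V1D by 0.55 and ATP6V1F by 0.82, and ATP6V1A was lower, at −0.41 ± 0.11 (adjusted p = 0.00912). ATP6V1E1 lost the call without OE replicate 2 or any 1 of the KO libraries (0.0595 to 0.0679), and ATP6V1A without KO replicate 3 (0.0602). With the offset for coding transcript length, ATP6V1E1 (0.03, adjusted p = 0.79), ATP6V1A (−0.09, 0.482) and ATP6V1D (0.22, 0.127) were not called in that comparison. ATP6V1FNB, a gene next to ATP6V1F that is not known as a subunit, differed by −0.90 ± 0.35 in KO (adjusted p = 0.088) and −0.40 ± 0.34 in the OE-labelled libraries (adjusted p = 0.446).

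Of the accessory proteins, ATP6AP1 (Ac45) takes part in the assembly of V0 and was at 445, 402 and 397 CPM in WT, 330, 305 and 286 in KO, with 413, 448 and 409 in the OE-labelled libraries. All KO libraries were below all others, a fall of −0.43 ± 0.10 (adjusted p = 0.00744; 0.0519 without WT replicate 1), while the OE-labelled libraries overlapped WT (0.03 ± 0.10, adjusted p = 0.872). ATP6AP2, also known as the prorenin receptor, differed from WT by 0.17 ± 0.12 in KO (adjusted p = 0.361) and −0.14 ± 0.12 in the OE-labelled libraries (adjusted p = 0.404). It was lower in the OE-labelled libraries than in KO (−0.31 ± 0.12, adjusted p = 0.0422), a difference of 0.01 with an offset for the length of all exons and of −0.45 (adjusted p = 0.00186) with one for the length of coding transcripts. The scarce ATP6AP1L, at most 6.78 CPM in any library, was also lower there (−0.95 ± 0.34, adjusted p = 0.0337). Leaving out any of 6 libraries ended the call of ATP6AP2 (0.0527 to 0.146), and any of 5 that of ATP6AP1L (0.0518 to 0.183).

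Among the 5 membrane proteins, LAPTM4B and CD63 changed and LAMP1, LAMP2 and LAPTM4A did not pass the test. LAPTM4B is a transmembrane protein of late endosomes and lysosomes that is abundant in several carcinomas and is known to bind ceramide and to promote mTORC1 activity. Its level was 132, 147 and 138 CPM in WT, 194, 202 and 202 in KO, with 466, 510 and 502 in the OE-labelled libraries. The 3 groups were far apart relative to their spread. The rise was 0.52 ± 0.10 in KO (1.43-fold, adjusted p = 0.00172) and 1.82 ± 0.10 in the OE-labelled libraries (3.54-fold, adjusted p = 2.71e-08), and the OE-labelled libraries exceeded KO by 1.30 ± 0.10 (adjusted p = 1.81e-07). Its close relative LAPTM4A had more RNA per length in WT (315 ± 36.5 against 43.6 ± 2.41 CPM per kb) and differed by −0.16 ± 0.11 in KO (adjusted p = 0.322) and 0.11 ± 0.11 in the OE-labelled libraries (adjusted p = 0.515). LAPTM4B reached 154 ± 7.28 CPM per kb in the OE-labelled libraries, still below LAPTM4A at 339 ± 3.32.

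CD63 is a tetraspanin of late endosomes, lysosomes and the vesicles that cells release from them, and it had the most RNA per length of all 42 genes in every group. It was at 1462.2, 1912.1 and 1336.6 CPM in WT, 1316.4, 1187.1 and 1116.7 in KO, with 2911.5, 4440.9 and 2899.8 in the OE-labelled libraries. The OE-labelled libraries were above all others, a rise of 1.12 ± 0.16 (adjusted p = 0.000381), and replicate 2 was the highest library in both WT and OE. With both of these replicates left out the call held. All KO libraries were below all WT libraries, by −0.38 ± 0.16, which did not pass the test (adjusted p = 0.109) but passed it under 7 of the 20 alternatives, among them the fit of KO and WT alone (0.0349) and leaving out OE replicate 2 (0.0199). LAMP1 and LAMP2 coat the inner face of the membrane, and a splice form of LAMP2 is the receptor of chaperone-mediated autophagy. Counts per gene do not separate the splice forms. LAMP1 ranged from 487 to 561 CPM in WT, 490 to 543 in KO and 456 to 513 in the OE-labelled libraries, and its intervals were −0.23 to 0.20 in KO and −0.33 to 0.11 in the OE-labelled libraries. LAMP2 was at 207 to 250 CPM in WT, 253 to 324 in KO and 203 to 249 in the OE-labelled libraries, with differences of 0.31 ± 0.13 (adjusted p = 0.0988) and 0.04 ± 0.13 (adjusted p = 0.855).

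Of the 7 genes for lumenal proteases and their partners, 2 fell in KO, and 2 fell and 1 rose in the OE-labelled libraries; 6 of the 7 had a negative value in each comparison. Of all 14150 genes tested, 7183 were negative in KO and 7195 in the OE-labelled libraries, with 9.6% and 11% called lower. CTSB encodes cathepsin B, a cysteine protease that also trims peptides from the carboxyl end. Its level was 363, 369 and 319 CPM in WT, 151, 138 and 121 in KO, with 280, 291 and 289 in the OE-labelled libraries. The KO libraries lay far below the others, a fall of −1.36 ± 0.11 (WT 2.57-fold higher, adjusted p = 4.41e-07), the largest change of any of the 35 genes in KO. The OE-labelled libraries lay below all WT libraries by −0.29 ± 0.11, which did not pass the test (adjusted p = 0.0746), and passed it with library totals alone (−0.41, adjusted p = 0.0148) and with coding transcript length taken into account (−0.37, adjusted p = 0.00787). CTSL, which encodes the related endopeptidase cathepsin L, was at 95.7, 96.6 and 82.9 CPM in WT, 61.4, 55.9 and 62.8 in KO, with 115, 123 and 119 in the OE-labelled libraries. The 3 groups did not overlap: CTSL fell in KO (−0.61 ± 0.12, adjusted p = 0.0017) and rose in the OE-labelled libraries (0.38 ± 0.12, adjusted p = 0.0344). The rise lost its call under 12 of the 20 alternatives, among them leaving out any of 6 libraries (KO replicate 2, WT replicate 1 or 3, or any replicate labelled OE, adjusted p 0.0543 to 0.164), while the fall in KO held under all 20.

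CTSZ, encoding the carboxypeptidase cathepsin Z, was at 218, 198 and 186 CPM in WT, 199, 176 and 153 in KO, with 137, 144 and 132 in the OE-labelled libraries. The OE-labelled libraries were below all others, a fall of −0.54 ± 0.12 against WT (adjusted p = 0.00575), and KO overlapped WT (−0.19 ± 0.12, adjusted p = 0.304). GRN encodes progranulin, a secreted protein that is taken to lysosomes and split into granulins. It was at 409.6, 346.2 and 346.9 CPM in WT, 389.1, 390.4 and 283.8 in KO, with 220.2, 295.4 and 262.4 in the OE-labelled libraries. It fell in the OE-labelled libraries without overlap with WT (−0.50 ± 0.14, adjusted p = 0.0189), a call lost without OE replicate 1 or WT replicate 1 (0.0759 and 0.106), and differed by −0.05 ± 0.14 in KO (adjusted p = 0.842). The aspartic protease CTSD, the serine carboxypeptidase CTSA, which also protects other lysosomal enzymes, and the tripeptidyl peptidase TPP1 did not pass the test. Their differences in the OE-labelled libraries were −0.18 ± 0.18, −0.22 ± 0.11 and −0.36 ± 0.16, and in KO −0.33 ± 0.19, −0.01 ± 0.11 and 0.01 ± 0.15. Set directly against KO, the OE-labelled libraries had more CTSB (1.07 ± 0.11, adjusted p = 3.71e-06) and CTSL (0.99 ± 0.12, adjusted p = 1.39e-05), and less CTSZ (−0.35 ± 0.12, adjusted p = 0.0278) and GRN (−0.45 ± 0.14, adjusted p = 0.0173). The calls for CTSZ and GRN in that comparison were lost without any of 4 and 3 libraries (CTSZ: KO replicate 1 or 2, OE replicate 1 or 3, 0.0671 to 0.138; GRN: KO replicate 1 or 2, OE replicate 1, 0.0699 to 0.0912).

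MCOLN1, the channel that releases calcium from the lysosome, was at 25.6, 21.8 and 19.9 CPM in WT, 25, 22.8 and 17.4 in KO, with 27.9, 30.3 and 25.7 in the OE-labelled libraries. The OE-labelled libraries lay just above the others, and the difference of 0.32 ± 0.17 did not pass the test (adjusted p = 0.201). The RNA of the transcription factors differed by less than the spread between libraries. TFE3 was at 66.4 to 87.4 CPM in WT, 71.2 to 84.1 in KO and 73.5 to 75.1 in the OE-labelled libraries, with differences of −0.01 ± 0.13 (adjusted p = 0.979) and −0.09 ± 0.13 (adjusted p = 0.673). TFEB had far less RNA per length (0.981 ± 0.419 against 18.8 ± 2.65 CPM per kb in WT), ranged from 3.18 to 7.91 CPM over all libraries, and its intervals were −0.81 to 0.67 in KO and −0.87 to 0.62 in the OE-labelled libraries. Their RNA does not show where the proteins are in the cell.

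Some of the genes that fell in KO lay among neighbours that were lower too. For each gene the median log2 fold change of up to 50 tested genes around it on the chromosome was taken. ATP6V0E1, on chromosome 5 at chr5:172983771-173035445 (Ensembl annotation of GRCh38), fell by 0.91, and its 50 neighbours, spread over 16.9 Mb, had a median of −0.89; 48 of the 50 were lower and 37 of them were called lower. ATP6AP1, at chrX:154428645-154436516, fell by 0.43 among neighbours over 2.51 Mb with a median of −0.47, of which 41 of 50 were lower and 19 called lower. CTSL, at chr9:87726109-87731469, fell by 0.61 among neighbours with a median of −0.36. CTSB, ATP6V1A, ATP6V0A2 and LAPTM4B departed from theirs, whose medians were 0.07, 0.13, 0.02 and 0.09. The neighbours of ATP6V0E1 had a median of 0.03 in the OE-labelled libraries, and those of LAPTM4B and CD63 had medians of −0.05 and 0.19. Copy number was not measured, and its part in the values of ATP6V0E1, ATP6AP1 and CTSL was not tested.

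**Figure D4:**
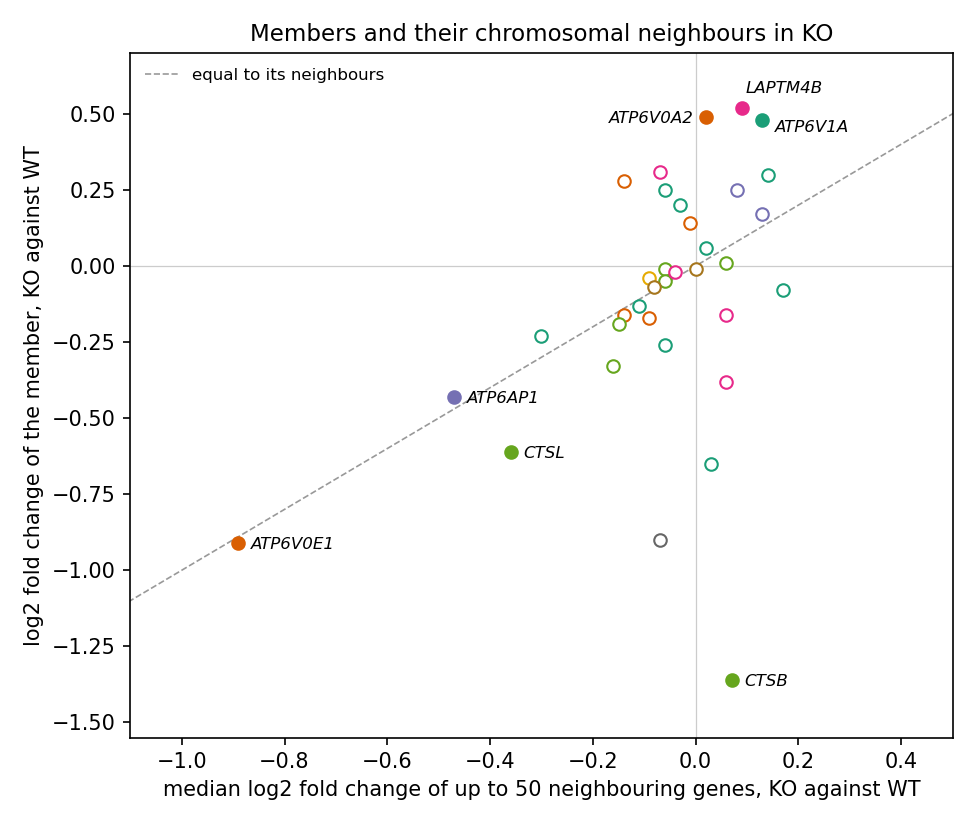
Log2 fold change in KO against WT of each of the 35 genes (vertical axis) against the median of up to 50 tested genes around it on its chromosome (horizontal axis), coloured by role, with filled points for an adjusted p under 0.05 and a dashed line where both are equal. ATP6V0E1 (−0.91 with neighbours at −0.89) and ATP6AP1 (−0.43 with −0.47) lie on the line, and CTSB (−1.36 with 0.07) lies far below it.

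Transcript length moved with the comparison of the OE-labelled libraries with WT. Over all genes tested, the median log2 fold change in 5 equal groups by length was 0.27 for the shortest coding transcripts (median 893 nt), then 0.13, 0.00 and −0.12, and −0.35 for the longest (median 5715.75 nt). In KO against WT the medians ran from −0.12 for the shortest to 0.12 for the longest, and between the OE-labelled libraries and KO from 0.38 to −0.46. Several of the genes that rose have short transcripts: ATP6V1F at 707 nt, ATP6V0E1 at 745, CD63 at 824, ATP6V0B at 944 and ATP6V1D at 1093. LAPTM4B at 2758 nt and ATP6V0E2 at 2115 do not, and CTSZ at 1495 and GRN at 1632 fell although genes of their length had a median above 0. With an offset for coding transcript length, chosen after the data were seen, the rises were 1.86 for LAPTM4B, 0.85 for CD63, 0.50 for ATP6V0E2, 0.47 for ATP6V0D1 and 0.32 for ATP6V0E1, all still called, and the falls were −0.72 for CTSZ and −0.66 for GRN. ATP6V0B (0.26, adjusted p = 0.107), ATP6V1D (0.24, 0.134), ATP6V1F (0.28, 0.0864) and CTSL (0.20, 0.197) were no longer called. With an offset for the length of all exons, ATP6V0A1 (0.58, adjusted p = 0.00555) and ATP6V0A2 (0.67, adjusted p = 0.00143) were called higher as well. Whether length sets any of these values was not tested.

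**Figure D5:**
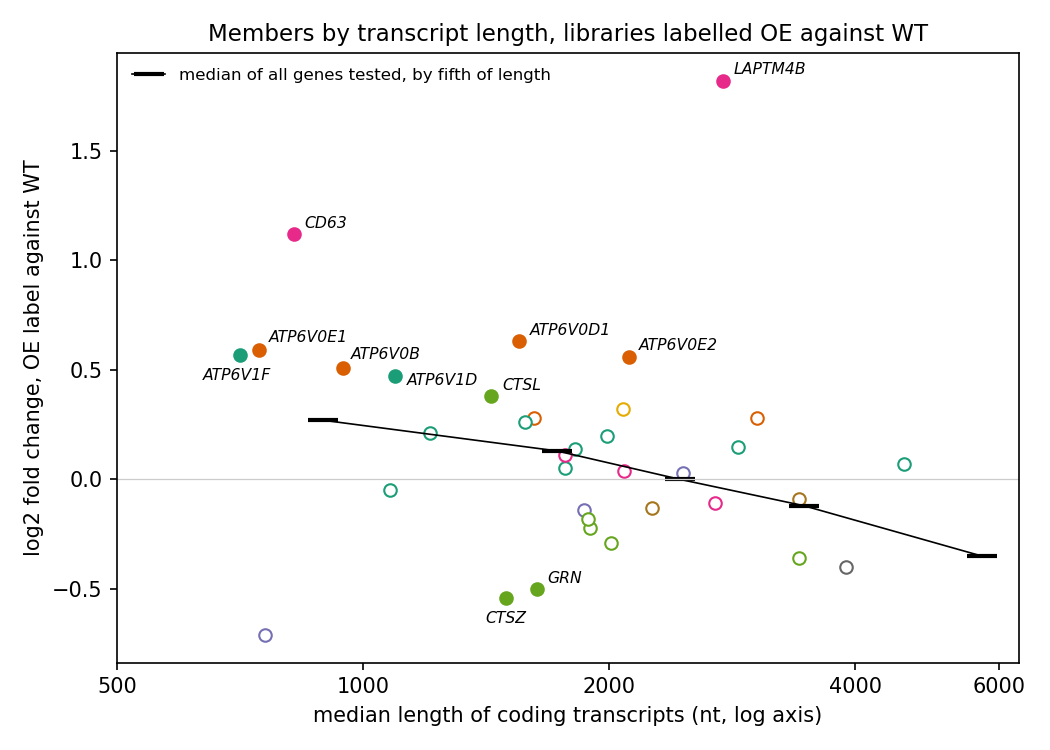
Log2 fold change of the OE-labelled libraries against WT for each of the 35 genes by the median length of its coding transcripts (nt, log axis), coloured by role, with filled points for an adjusted p under 0.05; the black marks join the medians of all genes tested in 5 equal groups by length. The marks fall from 0.27 to −0.35, CD63 (1.12) and LAPTM4B (1.82) lie well above them, and CTSZ (−0.54) and GRN (−0.50) lie below.

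Further genes of the same compartment were counted by list. Of 43 further lysosomal hydrolases and activators tested, 3 rose and 7 fell in KO (median −0.08), and 3 rose and 7 fell in the OE-labelled libraries (median 0.00). In KO, GUSB, the glycosidase beta-glucuronidase, fell by 0.96 ± 0.15 (adjusted p = 0.000194), and so did the sialate esterase SIAE (−1.29 ± 0.20), the nuclease DNASE2 (−0.87 ± 0.17) and the cysteine protease LGMN (−0.80 ± 0.18). In the OE-labelled libraries, the mannosidase MAN2B1 (−1.27 ± 0.19, adjusted p = 0.000497) and PLBD2 (−0.80 ± 0.16) fell, and GLA (0.62 ± 0.12), which removes a sugar from glycosphingolipids, rose. Of 33 further membrane proteins and transporters, 4 rose and 0 fell in KO by edgeR (median 0.07; 2 were lower at an unadjusted p under 0.05, and 0 by DESeq2 or limma-voom), led by MCOLN3, a relative of MCOLN1 (0.98 ± 0.15, adjusted p = 0.00022), and CD164 (0.54 ± 0.11). In the OE-labelled libraries 3 rose and 2 fell (median 0.15), among them MCOLN2 (1.15 ± 0.26) and the cholesterol transporter NPC1 (−0.41 ± 0.13).

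Of 10 further factors for V-ATPase assembly and regulation, 1 rose and 1 fell in KO, and 1 rose and 2 fell in the OE-labelled libraries. VMA21, which assists the assembly of V0 in the endoplasmic reticulum, fell in KO (−0.38 ± 0.12, adjusted p = 0.0312, neighbours −0.32) and rose in the OE-labelled libraries (0.37 ± 0.12, adjusted p = 0.0338). DMXL2, a part of the complex that reassembles the pump, fell in the OE-labelled libraries (−0.84 ± 0.26, adjusted p = 0.0305). Of 22 genes listed for the sorting of lysosomal enzymes, 2 rose and 1 fell in KO, and 1 rose and 4 fell in the OE-labelled libraries. This list also holds ARSG, which encodes a sulfatase and not a sorting factor. The gene that fell in KO was the scarce SORL1, with at most 30 counts in any library (−4.11 ± 0.72, adjusted p = 0.000653). It fell in the OE-labelled libraries too (−3.16 ± 0.65, adjusted p = 0.00357). M6PR and IGF2R are the mannose 6-phosphate receptors, which carry new enzymes to endosomes. M6PR rose in KO (0.66 ± 0.12, adjusted p = 0.00119, neighbours 0.06), and IGF2R fell in the OE-labelled libraries (−0.68 ± 0.15, adjusted p = 0.00621, neighbours −0.14). Both were lower in the OE-labelled libraries than in KO (M6PR −0.63 ± 0.12, adjusted p = 0.0009, neighbours −0.57, and IGF2R −1.11 ± 0.15, adjusted p = 4.3e-05, neighbours −0.22). AP1S1, a subunit of the adaptor that packs them into vesicles, rose in the OE-labelled libraries from 360 to 712 CPM (0.98 ± 0.15, adjusted p = 0.000524).

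Of 24 genes of mTORC1 and its anchors on the lysosome, 1 rose and 3 fell in KO, and 3 rose and 4 fell in the OE-labelled libraries. MITF, a relative of TFEB and TFE3, fell in KO (−0.83 ± 0.17, adjusted p = 0.00195), and the arginine sensor SLC38A9 rose (0.60 ± 0.15, adjusted p = 0.00995). In the OE-labelled libraries the anchor LAMTOR1 rose (0.57 ± 0.16, adjusted p = 0.0188), and RPTOR, which recruits substrates to mTORC1, fell (−0.62 ± 0.17, adjusted p = 0.0174). Of 36 genes of fusion with lysosomes and autophagy, 4 rose and 2 fell in KO, and 1 rose and 2 fell in the OE-labelled libraries. VPS16 of the tethering complexes fell in KO (−1.26 ± 0.16, adjusted p = 2.85e-05, neighbours −0.69) and the fusion protein VAMP7 rose (0.87 ± 0.12, adjusted p = 6.64e-05), while the autophagy kinase ULK1 fell in the OE-labelled libraries (−0.83 ± 0.16, adjusted p = 0.00293). Each of these lists had a share of calls against WT between 8.33% and 30%, beside 18.8% and 20.7% of all genes tested.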

How the data were processed

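The deposited values are raw counts of reads for each gene, in whole numbers and 1 file per library. Per the file headers they were made with featureCounts 1.5.2 on Ensembl release 101 of GRCh38, counting reads without regard to strand and leaving out reads that mapped to several places or overlapped more than 1 gene, which are the defaults of that program. The submitters' processing notes name FastQC, HISAT2 1.03, Subread, featureCounts 0.1.0 and DESeq2, so the 2 sources give different featureCounts versions. Poly-A RNA was selected, per the labels' protocols. Symbols were matched for 60401 of 60671 identifiers (99.6%) and biotypes for 58453 (96.3%, GENCODE 29).

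Differences were tested in edgeR 4.0.16 (R 4.3.3) by its quasi-likelihood method, after TMM scaling and a filter (filterByExpr, minimum count 10) that left 14150 genes. The 9 libraries entered a single model with the group as its term. Benjamini-Hochberg adjustment ran over the 14150 genes, with 0.05 as the threshold for a call, and adjusted p-values come from this model unless an alternative is named. Standard errors of log2 fold changes had a median of 0.187, on 6 residual degrees of freedom. Levels are CPM on TMM-scaled totals, with the SD over 3 libraries. CPM per kb divides by the length of all exons of a gene. In counts simulated for KO against WT over 14150 genes, the fit called 94% of genes changed 2-fold and 32% of those changed 1.5-fold. Only 50 genes were changed at each size there, while 2655 genes were called in KO against WT here. The adjustment is stricter where fewer genes change, so these shares do not carry over to the data. No libraries of a group agreed within sampling noise.

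Neighbours were the 25 tested genes on each side of a gene. Promoter sequences are those of RefSeq on GRCh38.p14, and coordinates of genes are those of the count files. Members called against WT are given with every library's value and the others with their differences; of each other list, up to 4 called genes with the smallest adjusted p could be named. Some items are not reported here. The members and the lists were chosen with earlier results of these data known, so no count over them is independent support. Alternatives were DESeq2 1.42.0, its size factors in edgeR, limma-voom (limma 3.58.1), library totals without TMM, no filter, fits of 2 groups only, a block on the replicate number, offsets for length, and leaving out each library. The offset from coding transcripts and the fit without WT replicate 2 and OE replicate 2 were chosen after seeing the data.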

Additional observations from a re-analysis of the deposited data

How the results depend on the processing

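Numbers of genes called moved with the setting more than the signs of the largest changes. In the OE-labelled libraries against WT, leaving out 1 library gave 4 to 9 genes higher (5 without WT replicate 1, 4 without WT replicate 3) and 1 to 3 lower. With library totals alone 4 were lower and 6 higher, and with the offset from coding transcripts 6 were lower (the added genes were ATP6AP1L, ATP6V1G1, CTSA and CTSB), while ATP6V0A1 (0.36, adjusted p = 0.0447) and ATP6V1A (0.30, 0.0318) were added as higher. Library totals moved the median of all genes to −0.129 in that comparison and took the share of higher genes among those called from 46.7% to 25.9%; in KO against WT that share went from 48.8% to 39%. In KO against WT, leaving out 1 library gave 2 to 3 higher and 3 to 5 lower. In the OE-labelled libraries against KO it gave 10 to 13 higher and 1 to 5 lower, and 3 were lower with the offset for exon length, with or without the replicate block. Under the offset for exon length ATP6AP2 turned from −0.31 to 0.01 in that comparison (also 0.01 with the block), and under the block with that offset ATP6V0A2 turned from −0.21 to 0.31, whereas the offset from coding transcripts gave −0.45 for ATP6AP2 and −0.41 for ATP6V0A2, both called lower (adjusted p = 0.00186 and 0.0124). The 2 offsets differ where a gene has long exons outside its coding transcripts, and the cause of each change was not tested. Over all genes, those called in the OE-labelled libraries against WT numbered 1365 higher and 1559 lower, 557 and 824 without WT replicate 1, 485 and 759 without WT replicate 3, and 817 and 1032 without OE replicate 2.

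Replicate numbers recur in the groups, and the labels do not say whether they pair the libraries. Deviations of same-numbered libraries correlated at 0.0598, −0.0346 and 0.172 between KO and WT and at 0.013, 0.246 and 0.136 between OE and WT. Between OE and KO they correlated at −0.138, −0.00748 and 0.134. For different numbers the values ran from −0.191 to 0.123 between KO and WT and from −0.281 to 0.209 between OE and WT. Between OE and KO they ran from −0.212 to 0.224. Whether same-numbered libraries share an effect was not tested. With the replicate number as a block, 4 genes were higher and 6 lower in KO against WT, 9 and 3 in the OE-labelled libraries against WT, and 13 and 7 against KO. Over all genes tested, the block gave 1622 higher and 1613 lower in KO against WT, beside 1296 and 1359 without it. In the OE-labelled libraries against WT it gave 1820 and 1937, beside 1365 and 1559. Calls in KO against WT kept their direction in each of the 20 alternatives, and ATP6V0A2 and ATP6AP1 lost their call in 2 and 1 of them. Of the 17 calls between the OE-labelled libraries and KO, 9 held in all 20; ATP6V0D1 lost its call without KO replicate 2 or 3 or OE replicate 2 (0.0578 to 0.0649) and with the offset from coding transcripts (0.27 in place of 0.49, adjusted p = 0.0557). At these depths scarce genes such as TFEB, ATP6V1C2 and ATP6AP1L have wide intervals. The simulated counts, with fewer changed genes than were called here, do not give the share of small differences missed in these data.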
